A study of Mus musculus with 12 samples.

Results

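A set of 8 long noncoding RNAs that have been studied in the heart was followed through 12 left ventricle libraries: Malat1, Neat1, Meg3, H19, Gas5, Snhg1, Miat and Tug1. Members were found by their gene symbol, and no measured value entered that rule. Of the 8 names, 7 had a row among the 25319 genes of the count table, and 6 of those passed the filter on low counts, among 14965 genes that did. Snhg1 was not analysed here, because no row carried that symbol. The study asked how dantrolene, an inhibitor of the cardiac ryanodine receptor RyR2, acts on the ventricle under pressure overload and on its inflammatory signalling. The 4 groups of 3 male C57BL/6 mice were TAC dantrolene, TAC control, sham dantrolene and sham control. TAC, transverse aortic constriction, narrows the aortic arch with a clip so that the left ventricle pumps against a raised pressure, and sham mice had the operation without constriction. Surgery was done at 8 weeks of age and tissue was taken at 12 weeks, and the dantrolene groups received 30 mg/kg/day by mouth for 4 weeks. Whether the control groups received a vehicle is not stated in the labels. Each library came from 1 mouse, and ventricle tissue was not sorted by cell type, so fewer cells of a type and less RNA per cell cannot be told apart.

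Long noncoding RNAs act without being translated, and these members do so in different places. Malat1 and Neat1 lie side by side on the chromosome and stay in the nucleus, where Malat1 concentrates in nuclear speckles, stores of splicing factors, and Neat1 is the scaffold on which paraspeckles are built. H19 and Meg3 are imprinted genes expressed from the maternal chromosome, H19 beside the growth factor gene Igf2 and as the host of a microRNA, Meg3 in the domain of Dlk1 and Rtl1. Gas5 and Snhg1 are host genes whose introns yield small nucleolar RNAs, and the spliced remainder of such transcripts is degraded in the cytoplasm by nonsense-mediated decay. Miat was named after myocardial infarction, and Tug1 is a broadly expressed RNA first described in the retina.

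The libraries were made from RNA bound to oligo(dT) beads, so the 3′ ends of these RNAs bear on what could be counted. The ends shown are the last 70 bases of transcripts in the GENCODE vM21 annotation of GRCm38, written 5′ to 3′ along the RNA as DNA, and capitals mark a polyadenylation signal, AATAAA or ATTAAA, where the last 40 bases hold one. In Neat1-201 no such signal was found, and capitals mark its runs of 4 or more A. The ends of Malat1-201 (chr19:5795690-5795759, minus strand), Neat1-201 (chr19:5824708-5824777, minus strand) and Neat1-202 (chr19:5842307-5842376, minus strand) were as follows.
Malat1-201: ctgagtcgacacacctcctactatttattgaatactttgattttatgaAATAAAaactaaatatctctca
Neat1-201: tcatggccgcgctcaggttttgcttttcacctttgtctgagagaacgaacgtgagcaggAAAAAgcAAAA
Neat1-202: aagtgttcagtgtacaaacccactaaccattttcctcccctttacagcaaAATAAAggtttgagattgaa
The short Neat1 transcript of 3004 bases ends in a signal, whereas the long one of 20771 bases, which carries the paraspeckle, ends in a genome-encoded A-rich tract and is known to lack a poly(A) tail. Most Malat1 is likewise cut upstream of its annotated end, next to a tRNA-like sequence. Its longest run of A was 12 bases and began 310 bases before the annotated end, and it is shown in capitals with 25 bases before it and 65 after it (chr19:5795923-5796024, minus strand).
Malat1 A run: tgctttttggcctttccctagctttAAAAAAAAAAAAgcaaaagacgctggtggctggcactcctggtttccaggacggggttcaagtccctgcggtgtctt
The share of Malat1 and long Neat1 molecules that the beads retained was not measured in these data. A transcript that ends in an ordinary signal is shown for each of the other tested members: Meg3-209 (chr12:109571657-109571726, plus strand), H19-202 (chr7:142575529-142575598, minus strand), Gas5-218 (chr1:161038470-161038539, plus strand) and Tug1-201 (chr11:3639785-3639854, minus strand).
Meg3-209: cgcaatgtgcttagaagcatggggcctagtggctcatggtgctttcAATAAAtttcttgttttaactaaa
H19-202: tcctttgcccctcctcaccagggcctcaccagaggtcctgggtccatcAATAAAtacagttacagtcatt
Gas5-218: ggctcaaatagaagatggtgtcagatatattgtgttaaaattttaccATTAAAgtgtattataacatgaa
Tug1-201: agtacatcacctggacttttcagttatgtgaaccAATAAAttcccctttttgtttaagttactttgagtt
Not every annotated transcript of a member ends so: a signal was found in 3 of 4 for Malat1, 1 of 4 for Neat1, 4 of 11 for Meg3, 4 of 7 for H19, 17 of 25 for Gas5 and 3 of 8 for Tug1. Among 141704 annotated mouse transcripts, read on the transcript strand only, 25.8% held AATAAA and 8.05% held ATTAAA in their last 40 bases, and 4.07% held a run of 12 A anywhere. A match is a description of the letters and not evidence of use. H19 also hosts miR-675, whose mature arms are shown from RefSeq (GRCm38.p6) with the seed, bases 2 to 8, in capitals. The table had no row for that microRNA, and small RNAs were outside the range of this library type.
mmu-miR-675-5p: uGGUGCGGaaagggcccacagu
mmu-miR-675-3p: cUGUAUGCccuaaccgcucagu

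Libraries held between 25766378 and 38363106 counted reads. The left ventricle label was checked against its markers: all 10 cardiomyocyte markers had a row and summed to between 69148 and 99360 CPM, counts scaled to library size with edgeR's TMM factors, whereas the atrial markers summed to between 3.63 and 14.5 CPM. The first principal component held 41.7% of the variance of log2 CPM. In each group the library with the highest score on it was set apart, so 1 in each group follows from that rule. These were library 1 of TAC dantrolene (score 76.5), library 1 of TAC control (85.6) and library 3 of sham dantrolene (77.9). Library 3 of sham control, less far at 34.7, completed the 4. The scores of the other 8 libraries lay between -50.7 and -22.7. In these 4, the log2 level of genes over 4000 bases minus that of genes under 1500 bases was -0.90, -0.79, -0.58 and -0.18, and in the other 8 libraries it lay between -0.00196 and 0.71. The skeletal muscle list summed to between 7738 and 12097 CPM in the 4 and to between 3314 and 4862 CPM in the 8. Nearly all of that sum was Ckm, a gene also of heart muscle. It made 12095 of the 12097 CPM in library 1 of TAC dantrolene and 3312 of the 3314 CPM in library 3 of TAC control. The sum is therefore not a measure of skeletal muscle. The mean log2 CPM of the 4 minus that of the 8 was -2.05 for Malat1, -1.98 for Meg3, -1.32 for Neat1, -0.69 for Gas5, -0.30 for Tug1 and 1.78 for H19, beside -0.08 for the median tested gene. The main results are given with and without these libraries, and the part of read coverage, RNA quality or cell content in them was not tested.

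Per length, H19 was the most abundant of the 7 measured members and Miat the least. The deposited FPKM, fragment counts scaled to gene length and library size, had medians over the 12 libraries of 14.6 for H19, 9.03 for Gas5, 1.44 for Neat1, 1.19 for Malat1, 0.795 for Tug1, 0.03 for Meg3 and 0 for Miat. Neighbours in this order overlapped in range except Tug1 and Meg3. H19 was above Gas5 in 9 of 12 libraries, Gas5 above Neat1 in 12, Neat1 above Malat1 in 8, Malat1 above Tug1 in 7, Tug1 above Meg3 in 12 and Meg3 above Miat in 9. Neat1 and Malat1, and Malat1 and Tug1, thus changed places from library to library. Among 4666 rows of a long noncoding type, these medians ranked H19 at 35, Gas5 at 66, Neat1 at 292, Malat1 at 343, Tug1 at 466 and Meg3 at 1756. By deposited FPKM, Malat1 and Neat1 were therefore not among the leading noncoding transcripts of these poly(A)-selected libraries. For Neat1 that rank rests on an implied length of 20599 bases, near that of the long transcript without a poly(A) tail. Its short transcript has 3004 bases. The share of reads from each was not measured, so the level of Neat1 per length may be understated. Its median of 35.4 CPM was close to the 36.8 CPM of H19. The length behind the FPKM of Gas5, as the ratio of its reads to its FPKM implies, was 844 bases, against 3760 bases of annotated exon. Rescaled to annotated exon length, Gas5 had a median of 2.03 and the order of the 7 members was the same.

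**Figure D1:**
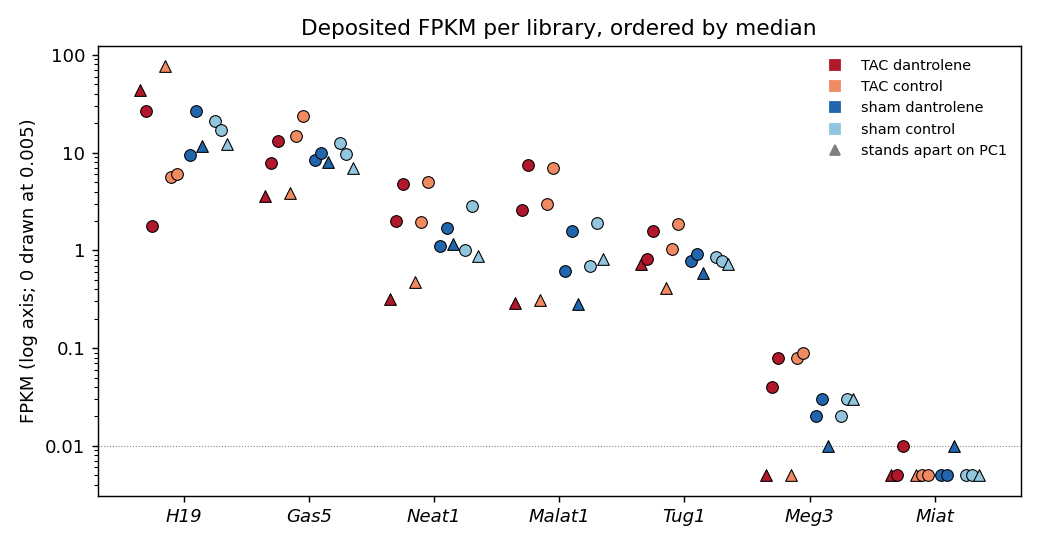
Deposited FPKM (log axis, 0 drawn at 0.005) of the 7 members with a row in each of the 12 libraries, coloured by group, with triangles for the 4 libraries that stand apart. H19, with a median of 14.6, spans from 1.79 to 76.4 FPKM and crosses the range of Gas5, while Meg3 and Miat lie at the foot of the axis.

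Malat1 (ENSMUSG00000092341.2, lincRNA, chr19:5795690-5802672, minus strand) was higher in TAC than in sham ventricles on average and had the smallest p of the members over all 12 libraries. It stood at 3.36, 16.8 and 54.4 CPM in TAC dantrolene ventricles and at 3.55, 24.5 and 54.9 CPM in TAC control ventricles. It stood at 4.63, 11.5 and 2.69 CPM in sham dantrolene ventricles and at 5.18, 13.3 and 6.73 CPM in sham control ventricles. Of the 6 TAC libraries, 4 were above every sham library, and the other two, libraries 1 of each TAC group, lay among the lowest sham libraries, so the groups overlapped. In both TAC groups library 1 was lowest and library 3 highest. In TAC control against sham control the log2 fold change was 1.72 ± 0.98 (SE, n = 3 each; 95% interval -0.42 to 3.85; edgeR adjusted p = 0.677), and in TAC dantrolene against sham dantrolene it was 1.98 ± 0.99 (interval -0.17 to 4.14; edgeR adjusted p = 1.00). Over all 6 TAC and 6 sham libraries it was 1.85 ± 0.70, with an unadjusted p of 0.0209 and an adjusted p of 0.668 from edgeR. The unadjusted p was under 0.05 in 14 of 20 alternatives of that comparison, and the adjusted p ranged from 0.113 to 0.977. Without the 4 libraries that stand apart the log2 fold change was 2.10 ± 0.57, still not called (edgeR adjusted p = 0.113), and with the replicate block it was 1.20. Single libraries lowered it: without library 3 of TAC dantrolene it was 1.21 over all libraries and 0.69 in TAC dantrolene against sham dantrolene, and without library 3 of TAC control it was 0.74 in TAC control against sham control.

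Neat1 (ENSMUSG00000092274.2, lincRNA, chr19:5824708-5845478, minus strand) lies 22035 bases from Malat1 on the same strand, with no other tested gene between them. It stood at 11.3, 38.4 and 103 CPM in TAC dantrolene ventricles and at 16.3, 47.3 and 118 CPM in TAC control ventricles. Sham dantrolene ventricles held 24.6, 37.4 and 33.3 CPM and sham control ventricles 22.1, 58.8 and 21.4 CPM. The 2 highest and the 2 lowest of the 12 values were all TAC libraries, which bracketed the sham range. The log2 fold change was 0.83 ± 0.76 in TAC control against sham control (edgeR adjusted p = 0.794) and 0.76 ± 0.54 over all TAC and all sham libraries (edgeR adjusted p = 0.812). Without library 3 of TAC control the log2 fold change against sham control became -0.10.

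**Figure D2:**
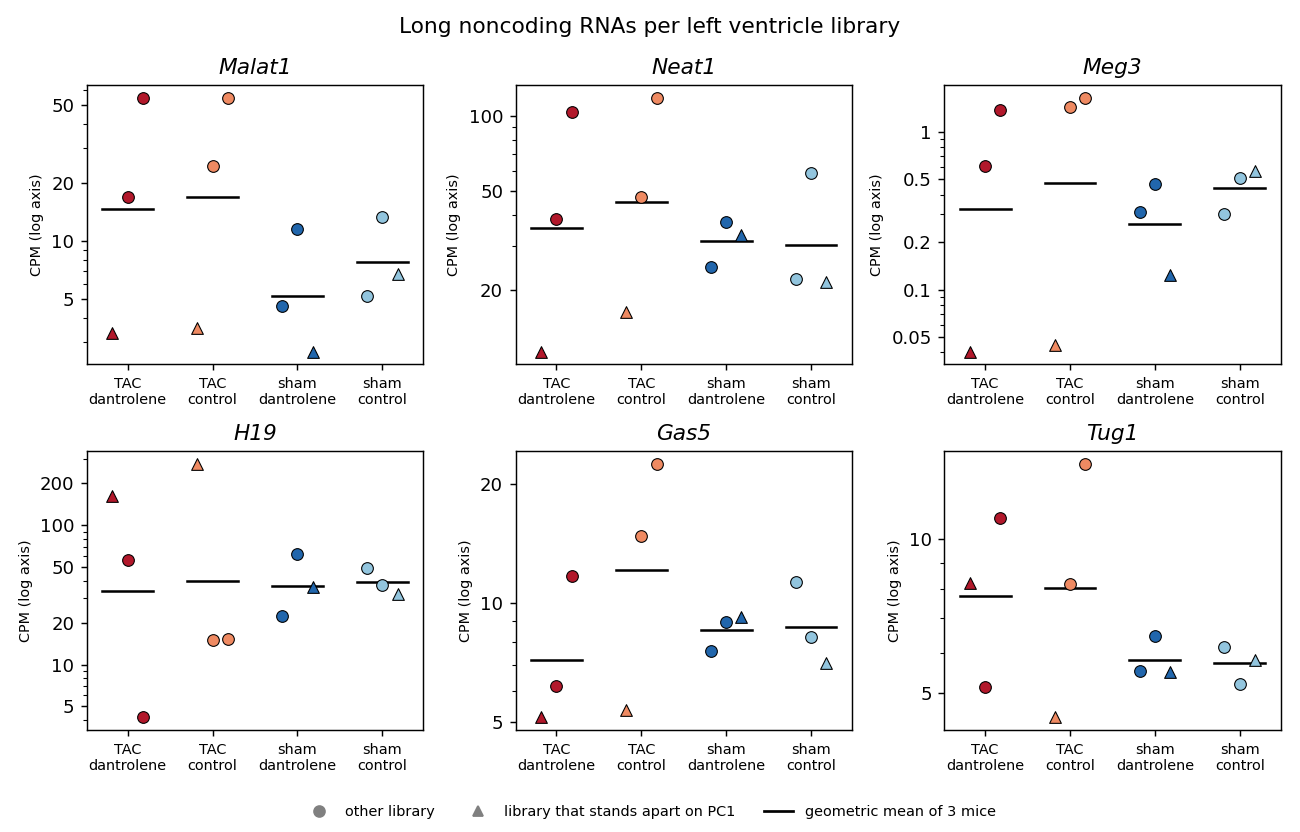
CPM (log axis, its range set for each panel) of the 6 tested members, with a point for each library, a triangle for each library that stands apart and a line at the geometric mean of the 3 mice of a group. Malat1, Neat1 and Meg3 are lowest in the triangles of both TAC groups, and H19 is highest there, at 163 and 278 CPM.

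H19 (ENSMUSG00000000031.13, lincRNA, chr7:142575529-142578143, minus strand) was highest in the TAC libraries where Malat1 and Neat1 were lowest. It stood at 163, 55.9 and 4.17 CPM in TAC dantrolene ventricles and at 278, 14.9 and 15.2 CPM in TAC control ventricles. Sham dantrolene ventricles held 22.2, 62.4 and 36.1 CPM and sham control ventricles 49.7, 37.6 and 32.2 CPM. The TAC libraries reached both above and below the whole sham range, with 3 of the 6 under the lowest sham library. The fitted log2 fold change of 1.36 ± 1.16 in TAC control against sham control (edgeR adjusted p = 0.779) rested on library 1 of TAC control: without it the value was -1.40. Without the 4 libraries that stand apart it was -1.56, and on log2(FPKM + 0.1), where limma weighs each mouse's log value equally, it was -0.23. No direction of H19 under pressure overload can therefore be given from these mice.

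Values of other genes moved with H19 in the TAC libraries, and their part in the result was not tested. Igf2, the paternally expressed growth factor gene on the other side of the shared control region, stood at 95.4, 33.9 and 25.3 CPM in TAC dantrolene ventricles and at 91.5, 33.7 and 29.9 CPM in TAC control ventricles. Its sham dantrolene values were 24.2, 50.5 and 34.1 CPM and its sham control values 44.7, 39.4 and 44.9 CPM. Igf2 was thus at its highest in the same pair of libraries as H19, libraries 1 of both TAC groups. The 8 epicardial and mesothelial markers, all with a row, summed to 18.9, 28.6 and 3.60 CPM in TAC dantrolene ventricles and to 35.3, 5.96 and 4.41 CPM in TAC control ventricles, against 3.46 to 9.63 CPM in sham dantrolene and 1.36 to 2.78 CPM in sham control ventricles. Of the 5 markers that were tested, 4 passed an unadjusted p under 0.05 in TAC control against sham control, all higher, as did 4.13% of all genes, and none was called by edgeR. TAC dantrolene ventricles held 6.28, 8.52 and 0.877 CPM of Arntl, a core gene of the circadian clock, and TAC control ventricles 5.33, 1.33 and 1.79 CPM. TAC dantrolene ventricles held 10.49, 14.7 and 130 CPM of Hspa1a, an inducible heat shock gene, and TAC control ventricles 7.99, 156 and 157 CPM. Arntl and Hspa1a were added after their values were seen, and no rule fixed a cut on H19 beforehand. As a description only, the 3 TAC libraries with H19 above 50 CPM were the TAC libraries with high Arntl, high mesothelial markers and low Hspa1a. In sham libraries this did not hold: Hspa1a was between 4.27 and 13.1 CPM in all 6, and library 2 of sham dantrolene, with 62.4 CPM of H19, had 2.46 CPM of Arntl and a mesothelial sum of 4.23 CPM. The hour at which each mouse was killed is not given in the labels.

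Meg3 (ENSMUSG00000021268.15, lincRNA, chr12:109541001-109571726, plus strand) was measured on few reads, between 1 and 56 in a library. It stood at 0.04, 0.61 and 1.38 CPM in TAC dantrolene ventricles and at 0.04, 1.44 and 1.65 CPM in TAC control ventricles. Sham dantrolene ventricles held 0.31, 0.47 and 0.12 CPM and sham control ventricles 0.30, 0.51 and 0.57 CPM. Of the 6 TAC libraries, 4 were above every sham library, and the other two held 1 read each, under the limit of 3 counts that corresponds to 0.121 and 0.133 CPM at their depths. The log2 fold change was 1.21 ± 1.01 in TAC control against sham control (edgeR adjusted p = 0.777) and 1.18 ± 0.73 over all TAC and all sham libraries (edgeR adjusted p = 0.780). Without the 4 libraries that stand apart these became 1.91 ± 0.58 (edgeR adjusted p = 0.0866) and 1.61 ± 0.41 (edgeR adjusted p = 0.0798), against adjusted p-values of up to 0.999 and 0.997 in other alternatives. They were 0.76 and 0.65 with the replicate block, 0.74 in TAC control against sham control without library 3 of TAC control, and 0.70 over all libraries without library 3 of TAC dantrolene.

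Gas5 (ENSMUSG00000053332.11, processed transcript, chr1:161034422-161038539, plus strand) was the member with the smallest spread after Tug1 and had the smallest p of the members with dantrolene in TAC mice. It stood at 5.14, 6.19 and 11.7 CPM in TAC dantrolene ventricles and at 5.37, 14.8 and 22.6 CPM in TAC control ventricles. Sham dantrolene ventricles held 7.57, 8.99 and 9.26 CPM and sham control ventricles 11.3, 8.21 and 7.07 CPM. Each TAC dantrolene library was below the TAC control library of the same number, by little in libraries 1, and the groups overlapped. The log2 fold change was -0.89 ± 0.46 in TAC dantrolene against TAC control (interval -1.90 to 0.11; edgeR unadjusted p = 0.0772, adjusted p = 1.00) and 0.69 ± 0.46 in TAC control against sham control (edgeR adjusted p = 0.727). These comparisons share the TAC control mice, so their opposite signs are not independent. Over the 22 alternatives of the first, the value ranged from -1.33 to -0.40, and the unadjusted p was under 0.05 in 5 of them. The adjusted p ranged from 0.113 to 1.00, and library 3 of TAC control gave the value nearest 0 when left out.

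Tug1 (ENSMUSG00000056579.15, processed transcript, chr11:3639785-3649673, minus strand) was the least variable member. It stood at 8.22, 5.15 and 11.02 CPM in TAC dantrolene ventricles and at 4.48, 8.18 and 14.0 CPM in TAC control ventricles. Sham dantrolene ventricles held 5.53, 6.47 and 5.50 CPM and sham control ventricles 6.17, 5.22 and 5.82 CPM. Of the 6 TAC libraries, 4 were above every sham library and 2 were below every one, so the groups overlapped. The log2 fold change over all TAC and all sham libraries was 0.56 ± 0.28 (interval -0.06 to 1.17; edgeR adjusted p = 0.740).

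Miat (ENSMUSG00000097767.6, lincRNA, chr5:112213228-112229395, minus strand) was at or near the limit of detection. It had 4 reads in library 3 of TAC dantrolene, 2 reads in library 3 of sham dantrolene and 0 in the other 10 libraries, where a count of 0 allows up to between 0.0631 and 0.133 CPM. Such limits cover counting error only. It did not pass the filter and no fold change is given. Inside the annotated position of Snhg1 (chr19:8723475-8726443, plus strand), 8 small nucleolar RNA genes had rows of their own, with at most 10 reads in a library.

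No member was called in any of the 7 comparisons by edgeR's quasi-likelihood test at an adjusted p under 0.05, where 0% of the 14965 genes were called in each. At an unadjusted p under 0.05, 1186 genes (7.93%) passed in TAC control against sham control, 256 (1.71%) in TAC dantrolene against sham dantrolene and 1014 (6.78%) in all TAC against all sham, where Malat1 was the 1 member among them. With DESeq2 on the same counts 83, 4 and 55 genes were called in these comparisons and no member was. All 6 tested members had a positive fold change in TAC control against sham control, where 57.2% of all genes did, and again in all TAC against all sham, where 56.8% did. Their median log2 fold change was 1.02 among control mice, beside 0.10 for all genes, and 0.94 over all mice, beside 0.06. In TAC dantrolene against sham dantrolene 5 were positive and Gas5 negative, with a median of 0.78 beside 0.08; 59.9% of all genes were positive there. H19 enters these tallies with the sign of the fit over all libraries; with it turned, as without library 1 of TAC control, 5 of the 6 were positive in either comparison. The 95% intervals of the fold in TAC control against sham control reached down to 0.45 and up to 14.7, both for H19, and from 0.849 to 2.84 for Tug1.

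In the fit without a replicate block, no member differed beyond the spread between mice with dantrolene. With the replicate number as a block within each surgery arm no member was called either, and SEs were smaller. Malat1 then had -0.22 ± 0.24 in TAC mice and -0.54 ± 0.25 in sham mice. Gas5 had -0.78 ± 0.28 in TAC mice (edgeR unadjusted p = 0.0190, adjusted p = 0.372). Without the block, all 6 members had a negative fold change in TAC dantrolene against TAC control, where 51.8% of all genes had a positive one. Their median was -0.36 beside 0.02 for all genes. In sham dantrolene against sham control 2 were positive and 4 negative, with a median of -0.07 beside 0.02 for all genes, 52.5% of which were positive. Malat1 had a log2 fold change of -0.16 ± 0.95 in TAC mice and -0.42 ± 0.97 in sham mice, Neat1 of -0.25 ± 0.76 and -0.10 ± 0.76, Meg3 of -0.63 ± 0.99 and -0.58 ± 1.06, and H19 of -0.46 ± 1.14 and 0.02 ± 1.14. Tug1 had -0.13 ± 0.40 and 0.02 ± 0.40. The signs in TAC mice rested on single libraries: without library 3 of TAC control the values of Malat1, Neat1 and Tug1 were 0.82, 0.68 and 0.36, without library 3 of TAC dantrolene those of Malat1 and Neat1 were -1.45 and -1.28, and without library 1 of TAC control that of H19 was 2.30. The difference between the dantrolene effects in TAC and sham mice was tested as an interaction: it lay between -0.85 ± 0.65 for Gas5 and 0.27 ± 1.35 for Malat1, with an edgeR adjusted p of 1.00 for each of the 6. Malat1 alone was positive there, as were 49.5% of all genes. Over all dantrolene and all control libraries all 6 were negative, from -0.60 for Meg3 to -0.05 for Tug1, where 56.7% of all genes were positive; no member was among the 156 genes (1.04%) at an unadjusted p under 0.05, and DESeq2 called 1 gene. At an unadjusted p under 0.05, 486 genes (3.25%), 107 (0.715%) and 422 (2.82%) passed in the TAC, the sham and the interaction comparison, with no member among them, and DESeq2 called 12, 0 and 1.

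**Figure D3:**
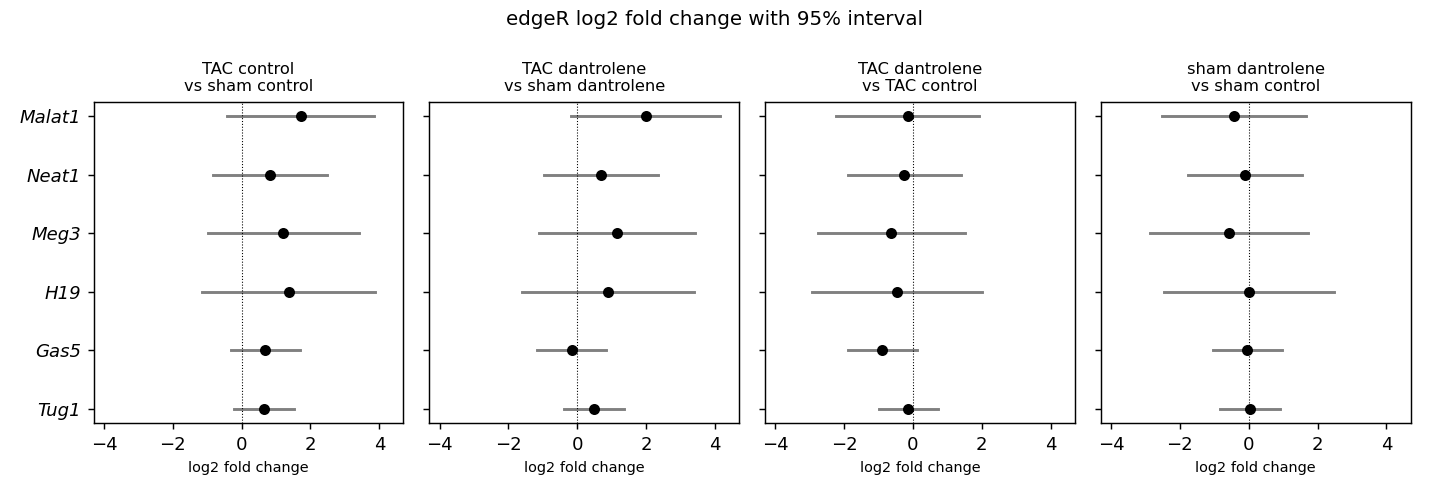
edgeR log2 fold changes (points) with 95% intervals (lines) of the 6 tested members in the 4 comparisons between pairs of groups, 3 mice each. Every interval includes 0; points lie to the right of 0 for all 6 in TAC control against sham control, up to 1.72 for Malat1, and to the left for all 6 in TAC dantrolene against TAC control.

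Leaving out the 4 libraries that stand apart left 2 mice a group and 15069 genes, of which 484 (3.21%) were then called in TAC control against sham control, 478 (3.17%) in TAC dantrolene against TAC control and 67 (0.445%) in all TAC against all sham. No member was called in any of them. H19 then had the opposite sign to that over all libraries, -1.56 in TAC control against sham control and 0.97 in TAC dantrolene against TAC control, while the other 5 members kept theirs. Malat1, Meg3, Gas5 and Tug1 had log2 fold changes of 2.08 ± 0.81, 1.91 ± 0.58, 0.91 ± 0.35 and 0.94 ± 0.39 in TAC control against sham control, with edgeR adjusted p-values of 0.179, 0.0866, 0.143 and 0.170. Gas5 in TAC dantrolene against TAC control had -1.05 ± 0.35 (edgeR adjusted p = 0.113).

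The members differed widely in how much they varied between mice of the same group. The within-group SD of log2 CPM was 1.86 for H19, higher than in 99.6% of tested genes, 1.55 for both Malat1 and Meg3 and 1.16 for Neat1, but 0.64 for Gas5 and 0.50 for Tug1, near the median gene at 0.54. Group membership accounted for 0.378% of the variance of H19, for 22.3% of that of Malat1 and for 18.4% of that of the median gene. Across the 6 TAC libraries H19 ranged over 6.04 log2 units and Malat1 over 4.005, against 1.49 and 2.28 across the 6 sham libraries. All 6 members had a wider range in TAC than in sham libraries, as did 80.6% of all tested genes, so the direction was that of most genes.

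**Figure D4:**
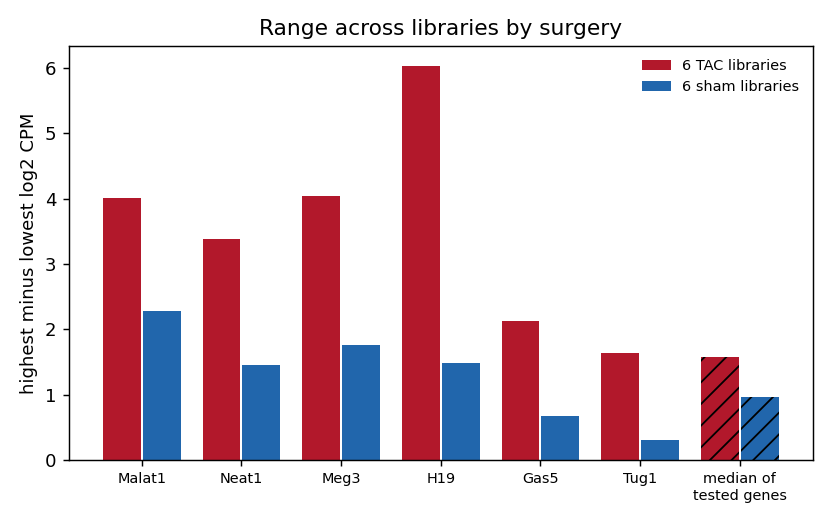
Highest minus lowest log2 CPM of each tested member across the 6 TAC and the 6 sham libraries, beside the median over all tested genes (hatched). H19 has the widest TAC range, 6.04 log2 units, and every member, like the median gene at 1.57 against 0.96, is wider in TAC.

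Malat1, Neat1 and Meg3 were high in the same TAC libraries. Because 4 libraries stand apart, correlations of log2 CPM were taken over the other 8, which also differ in surgery and drug; 15 pairs of members were compared and each p is from an exact permutation test, two-sided. That test takes the 8 libraries as exchangeable, although they fall into 4 groups and same-numbered libraries deviate together, so its p-values may be too small and r is given as a description. Malat1 and Meg3 had r = 0.95 (rho = 0.95; exact p = 0.000273, adjusted 0.00409) and Malat1 and Neat1 had r = 0.95 (rho = 0.90; exact p = 0.00201, adjusted 0.0151). Without the 2 libraries farthest from the median of Malat1 these were 0.91 and 0.84. Gas5 and Tug1 had r = 0.88 (rho = 0.93; exact p = 0.00320, adjusted 0.0160), and 0.71 without the 2 farthest libraries. Tug1 had r of 0.81, 0.80 and 0.83 with Malat1, Neat1 and Meg3, and 0.37, 0.08 and 0.76 without the 2 farthest libraries. H19 had negative r with all 5 other members over the 8 libraries, from -0.73 to -0.50, none with an adjusted p under 0.05. With Malat1 it was -0.67 (exact p = 0.0718) and -0.17 without the 2 farthest libraries, so that relation rested on them. Without the 2 farthest libraries it was -0.14 with Neat1, but -0.73, -0.71 and -0.73 with Meg3, Gas5 and Tug1. Split by surgery, with the libraries that stand apart included, r in the 6 TAC and the 6 sham libraries was 0.99 and 0.56 for Malat1 with Neat1, 0.97 and 0.86 for Malat1 with Meg3, and 0.94 and 0.13 for Neat1 with Meg3. For H19 with the other 5 members it lay between -0.94 and -0.73 in TAC libraries and between 0.14 and 0.70 in sham libraries, the opposite sign.

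**Figure D5:**
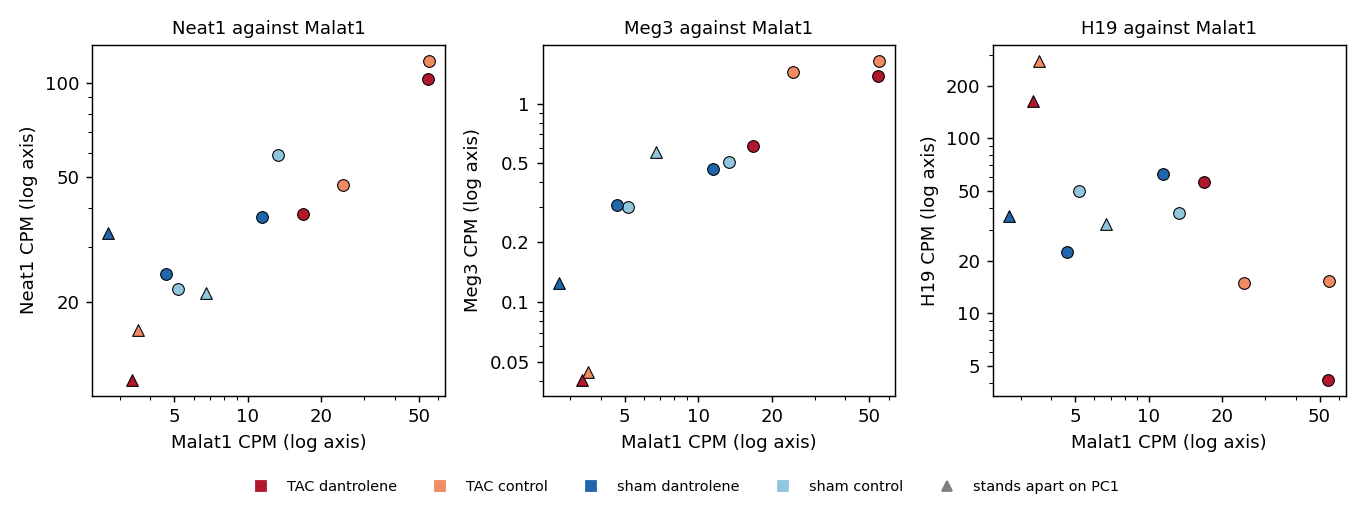
CPM of Neat1, Meg3 and H19 against CPM of Malat1 (log axes) in the 12 libraries, coloured by group, with triangles for the 4 libraries that stand apart. Neat1 and Meg3 are high where Malat1 is high, and H19 is highest in the 2 TAC libraries where Malat1 is at 3.36 and 3.55 CPM.

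As a description over all 12 libraries, which share depth and the split of the 4, the tested genes most like each member in log2 CPM were as follows. For Malat1 they were Chmp2b (r = 0.98), a membrane-remodelling ESCRT subunit, Phtf2 (0.97) and Cab39 (0.97), a scaffold of the kinase LKB1, and 1.98% of tested genes had r over 0.9 with it. For Neat1 they were Atg3, an autophagy enzyme, Hnrnpdl, an RNA-binding protein, and Cdc42bpa, a Cdc42-dependent kinase, with r between 0.95 and 0.96. For Meg3 they were Bfar, Fam178a and Psmc1, an ATPase of the proteasome, also between 0.95 and 0.96. For Gas5 they were Hscb, an iron-sulfur co-chaperone, Arhgap18 and Snx10, between 0.94 and 0.95. For Tug1 they were Luc7l3 (0.98), a splicing factor, Emc2 and G3bp2, a stress granule protein. Malat1 had 297 genes over r = 0.9 and H19 only 15, of which Gm27483 (0.97), Creb3l1 (0.95) and Sall1 (0.95), the last of these a transcription factor, were nearest.

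The first of these, Gm27483 (chr7:142576853-142576923, plus strand), is a small RNA model that lies inside H19 on the opposite strand, as does Gm27786 (chr7:142577849-142577918), with 1 to 78 and 1 to 54 reads in a library. The library was directional, per the labels, but whether counting used the strand is not given in the sources used here, so such reads and those of H19 cannot be told apart. Gas5 is likewise overlapped on the opposite strand by Zbtb37 (1 to 68 reads) and Tug1 by Morc2a (156 to 701 reads), and their r with the member was 0.56 and 0.12. For the nearest tested neighbours r over the 12 libraries was 0.88 for Igf2 and 0.66 for Mrpl23 with H19, 0.45 for Rtl1 and -0.75 for Begain with Meg3, and 0.67 for Rc3h1 with Gas5. It was -0.68 for Smtn and -0.16 for Osbp2 with Tug1 and -0.49 for Frmd8os with Neat1.

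The genes that work with these RNAs were read from lists: no gene of any was called by edgeR. Of 16 nuclear speckle and SR proteins, the splicing factors among which Malat1 resides, 12 were positive in TAC control against sham control with a median log2 fold change of 0.39 beside 0.10 for all genes, and 3 passed an unadjusted p under 0.05, all higher, as did 4.13% of all genes (3.8% passed as lower). Srsf7 stood at 27.1 to 31.8 CPM in libraries 2 and 3 of TAC control and 23.3 CPM in library 1, against 13.1 to 18.0 CPM in sham control, so the groups did not overlap, as in 7.54% of all genes in that direction (log2 fold change 0.77 ± 0.26; edgeR adjusted p = 0.512). Pnisr (1.45 ± 0.53), Rbm25 (0.87 ± 0.40) and Srsf1 (1.05 ± 0.58) had edgeR adjusted p-values of 0.552, 0.624 and 0.670. Of 14 paraspeckle proteins 9 were positive, with a median of 0.24. Sfpq, which holds Neat1 in the paraspeckle, had 0.59 ± 0.25 over all TAC and all sham libraries (edgeR adjusted p = 0.715).

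Of 10 tested host genes of small nucleolar RNAs other than Gas5, all 10 were positive in TAC control against sham control (median 0.66) and all 10 negative in TAC dantrolene against TAC control (median -0.21), comparisons that share the TAC control mice and in which 57.2% and 51.8% of all genes were positive. In TAC dantrolene against sham dantrolene, without those mice, 7 were positive and 3 negative. Their median was 0.14 beside 0.08 for all genes, 59.9% of which were positive. In sham dantrolene against sham control 8 were positive and 2 negative, where 52.5% of all genes were positive. TAC control ventricles held 8.08, 6.92 and 6.79 CPM of Snhg20 and sham control ventricles 3.79, 3.82 and 4.69 CPM, without overlap, as in 7.54% of all genes in that direction (log2 fold change 0.83 ± 0.38; edgeR adjusted p = 0.629). Snhg4 had 1.07 ± 0.59 in TAC control against sham control and -0.99 ± 0.59 in TAC dantrolene against TAC control, with edgeR adjusted p-values of 0.669 and 1.00. A further 9 names of that list had no row or too few reads. Of 10 nonsense-mediated decay factors, 4 were positive in TAC control against sham control, with a median of -0.24. Smg6, an endonuclease of the pathway, had -0.69 ± 0.29, and Upf2 and Upf3a, parts of its core, had 1.12 ± 0.48 and 0.65 ± 0.28, with edgeR adjusted p-values of 0.588, 0.602 and 0.602.

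Of 17 tested imprinted genes of the Meg3 and H19 domains and of their network, 12 were positive in TAC control against sham control, with a median of 0.26, and 2 passed an unadjusted p under 0.05, Peg3 and Dcn, both higher, where 4.13% of all genes did. Dcn, which encodes decorin of the extracellular matrix, was measured at 167, 521 and 743 CPM in TAC control ventricles, against 272, 146 and 211 CPM in sham control ventricles, with library 1 of TAC control again inside the sham range (log2 fold change 1.19 ± 0.52; edgeR adjusted p = 0.613). In TAC dantrolene ventricles Dcn was at 147, 150 and 391 CPM, a log2 fold change of -1.05 ± 0.52 against TAC control (edgeR adjusted p = 1.00). Decorin is also 1 of the 8 fibroblast markers, all with a row. They summed to 2792 to 3284 CPM in TAC dantrolene and 2400 to 5442 CPM in TAC control ventricles. In sham dantrolene ventricles the sum was 2279 to 3817 CPM and in sham control ventricles 2429 to 2957 CPM. The part of fibroblast content in these values was not tested. Peg3, a zinc finger gene, had 1.83 ± 0.69 on 0.62, 0.85 and 1.47 CPM in TAC control ventricles, against 0.41, 0.29 and 0.11 CPM in sham control ventricles (edgeR adjusted p = 0.558). Cdkn1c, a growth inhibitor, was measured at 29.7, 32.1 and 30.1 CPM in TAC dantrolene ventricles, against 27.5, 63.5 and 53.6 CPM in TAC control ventricles (log2 fold change -0.66 ± 0.29; edgeR adjusted p = 1.00). Plagl1 went the other way, with 1.83 ± 0.79 in TAC dantrolene against TAC control (edgeR adjusted p = 0.9997). It stood at 1.74, 0.86 and 0.60 CPM in TAC dantrolene ventricles and at 0.04, 0.08 and 0.73 CPM in TAC control ventricles. Of the 17 imprinted genes, 7 were positive and 10 negative in that comparison, with a median of -0.09 beside 0.02 for all genes. Of 12 other tested long noncoding RNAs, 8 were positive in TAC control against sham control with a median of 0.29. Peg13, an imprinted one, was lower in each TAC control library (46.7, 34.8 and 27.2 CPM) than in every sham control library (69.7, 74.8 and 59.3 CPM), as were 9.82% of all genes, with a log2 fold change of -0.91 ± 0.28 (edgeR adjusted p = 0.506). In TAC dantrolene against TAC control 8 of these 12 were positive and 4 negative, where 51.8% of all genes were positive. The smallest p there belonged to Jpx (-1.48 ± 0.73), then to Peg13 (0.53 ± 0.28). Mhrt, the antisense partner of the myosin heavy chain genes, came next with 0.51 ± 0.32. The edgeR adjusted p was 0.9997 for each of them.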

How the data were processed

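The authors deposited raw read counts per gene and FPKM values per gene for the same 12 libraries; the reads were processed with bcl2fastq and TopHat2 on GRCm38, per the submitters' processing notes, which also name edgeR. The deposited FPKM equal the deposited counts times 1 factor per library and 1 length per gene within 0.05 log2 units for all 1424 genes with FPKM over 20 in every library. Library preparation was directional from poly(A)-selected RNA with 150 nt paired reads, per the labels' protocols; neither the counter nor whether it used the strand is stated there. The members, the lists and the tests were chosen with earlier results of these data known.

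Counts were fitted with edgeR 4.0.16 (TMM, quasi-likelihood, R 4.3.3) over the 4 groups after filterByExpr (minimum count 10), and p-values were Benjamini-Hochberg adjusted over 14965 genes, with a threshold of 0.05. DESeq2 1.42.0 on the counts and limma 3.58.1 on log2(FPKM + 0.1) and log2(FPKM + 1) were alternatives. Log2 CPM values used a prior count of 2. The p-values measure the spread between these mice. The edgeR step was checked on simulated counts with known fold changes. Named genes were the 8 members, up to 4 genes of each list with the smallest p in the comparison described, the 3 genes most correlated with each member, and its neighbours; Arntl and Hspa1a were added after their values were seen. Some genes that this rule names are not reported here. Gene positions and transcript sequences are from GENCODE vM21, and 25116 of 25319 identifiers matched it.

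In the dantrolene comparisons, deviations of same-numbered libraries from their group means correlated at 0.30 to 0.61 in TAC mice and at 0.37 to 0.67 in sham mice. Different numbers reached 0.22 and 0.38, so in sham mice the ranges overlapped. The libraries that stand apart share a number within each surgery arm, 1 in TAC and 3 in sham. Their part in these correlations was not tested, and the labels do not say what a number marks. In the comparisons of TAC with sham, 1 of 3 pairs exceeded 0.1. No 2 libraries of a group agreed within counting noise.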

Additional observations from a re-analysis of the deposited data

How the results depend on the processing

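Of 888 member results under the alternatives, 0 were called, 87 had the other sign and 9 reversed a value larger than its own SE. For H19 in TAC control against sham control, 1.36, the reversed values were -1.56 without the 4 libraries that stand apart, -1.40 without library 1 of TAC control, and -0.23 and -0.17 on log2 FPKM plus 0.1 and plus 1. In all TAC against all sham, 1.13, the same 4 settings gave -1.06, -0.26, -0.19 and -0.10, and Neat1 in TAC control against sham control became -0.10 without library 3 of TAC control. Leaving out 1 library at a time gave -1.40 to 1.87 and -0.26 to 1.401 for H19 in these comparisons and -0.10 to 1.48 for Neat1. The single libraries decide these values; why they differ was not tested. The count of called genes, 0 in each of the 7 comparisons, moved as follows. Without a filter on low counts it was 3 in TAC control against sham control, 1 in TAC dantrolene against TAC control and 4 in all TAC against all sham. A fit of the 2 groups alone called 1 in TAC control against sham control. Without the 4 libraries that stand apart the counts were 484, 478, 7 for the interaction and 67 for all TAC against all sham; a term for these libraries gave 21 in TAC control against sham control and 6 in all TAC against all sham. DESeq2 called 83, 12, 4 in TAC dantrolene against sham dantrolene, 1 for the interaction, 55 in all TAC against all sham and 1 in all dantrolene against all control. Leaving out 1 library at a time gave 0 to 15 in TAC control against sham control, 0 to 1 in TAC dantrolene against TAC control and 0 to 1 in all TAC against all sham; the 15 came without library 1 of TAC control. With the replicate number as a block, across the 4 groups or within each surgery arm, 0 genes were called in every comparison and no call changed; with it, Malat1 in all TAC against all sham was 1.20 and H19 was 0.00. Depth limits Meg3 and Miat, at 1 to 56 and 0 to 4 reads in a library.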
